A study of Mus musculus with 46 samples.

Results

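The constructs described here are reporter plasmids that carry 2 promoter fragments of the mouse Klf2 locus, one after the other. They were chosen as every construct of the Upstream assay that the deposited table assigns to the Klf2 locus and to the promoter-promoter class, with an activity above 0 in each of 3 replicates. Of 1335 such pairs listed, 1317 were in use; the other 18 had a replicate at 0, which was replicate 1 for 4 of them and replicate 2 for 14. The 1317 pairs belong to 89293 constructs of the Upstream assay in the whole series and to 19789 constructs with 2 fragments of the Klf2 library.

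A promoter is the stretch of DNA around a gene's start where RNA polymerase II assembles, and an enhancer is an element that raises the output of a promoter from another position. Some promoters are known to work as enhancers of other promoters, and their action can be studied by placing both in 1 plasmid, outside of the chromosome. Klf2 encodes a zinc finger transcription factor that helps to hold embryonic stem cells in the naive pluripotent state.

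The host was E14TG2a, a line of mouse embryonic stem cells, kept in 2i+LIF medium (inhibitors of 2 kinases and the cytokine LIF). Plasmids of the Klf2, Nanog and negative control libraries were pooled and nucleofected as 1 mix into 3 separate cultures, the biological replicates, with RNA harvested 24 h later; the input plasmid pool was read in 2 technical replicates. Activity is the ratio of barcode abundance in complementary DNA (cDNA, from reporter RNA) to that in plasmid DNA (pDNA), so it is a measurement on transfected plasmids and not of the endogenous genes. Pair activities had a Pearson correlation of 0.96 to 0.97 between replicates on the log2 scale over the 1317 pairs.

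The pairs were built from 23 fragments of 450 bp on chromosome 8 (mm10), between the first at chr8:71908245-71908695 and the last at chr8:72761504-72761954. Of the 253 possible combinations of 2 fragments, 231 were present in at least 1 order and orientation. The 1317 pairs came to 65.1% of the 2024 ordered pairs that 46 oriented fragments allow in both positions with partners other than themselves. Of these 46, 42 occurred as first fragment and all 46 as second. Each fragment is named here by the gene whose RefSeq start lies in it, or by its library number, with + or - for the orientation as the deposited table gives it; whether + is the genomic strand is not given in the sources used here, nor which fragment lay nearer to the barcode. A gene start lay inside 18 of the 23 fragments. The exceptions were P014, which holds 1 end of Ap1m1 and is called by that name, P002 (97 bp from the start of Zfp882 and inside that gene), P008 (239 bp from the start of Tpm4), P012 (724 bp from the start of Cib3) and P005 (16368 bp from the nearest start, that of Olfr372). P022, called Smim7 here, also overlaps the Tmem38a gene. P023, called Tmem38a here, holds a start of that gene and lies wholly inside it. Values given for Tmem38a are thus those of P023, and Tmem38a sequence is also part of P022.

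The sequences of 5 promoters are shown because the results below turn on them: Smim7, Med26 and Calr3 gave the highest mean changes as first fragment before second promoters that were active on their own, Cyp4f18 the lowest, and Klf2 names the locus. Each is the 250 bases before the gene start from RefSeq on GRCm38.p6, 5′ to 3′ on the gene's strand, with matches to the motifs named below in capitals.
Smim7 (chr8:72571049-72571298, strand -, fragment P022 at chr8:72570844-72571294): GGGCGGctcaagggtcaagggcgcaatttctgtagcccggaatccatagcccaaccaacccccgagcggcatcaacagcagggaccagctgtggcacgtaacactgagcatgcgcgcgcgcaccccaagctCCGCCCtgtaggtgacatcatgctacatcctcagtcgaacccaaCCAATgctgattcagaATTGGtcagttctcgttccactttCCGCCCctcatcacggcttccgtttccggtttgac
Calr3 (chr8:72443779-72444028, strand -, fragment P018 at chr8:72443649-72444099): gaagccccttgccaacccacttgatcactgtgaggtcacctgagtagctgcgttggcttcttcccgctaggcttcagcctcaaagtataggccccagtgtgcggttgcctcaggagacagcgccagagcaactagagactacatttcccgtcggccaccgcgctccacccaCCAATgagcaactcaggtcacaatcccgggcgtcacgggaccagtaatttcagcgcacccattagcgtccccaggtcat
Med26 (chr8:72548311-72548560, strand -, fragment P021 at chr8:72548195-72548645): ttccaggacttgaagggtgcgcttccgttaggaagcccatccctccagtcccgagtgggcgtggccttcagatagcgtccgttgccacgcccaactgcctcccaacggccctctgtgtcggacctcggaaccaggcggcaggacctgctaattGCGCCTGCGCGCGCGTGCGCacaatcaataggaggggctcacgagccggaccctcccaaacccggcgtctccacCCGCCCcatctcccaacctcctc
Cyp4f18 (chr8:72009627-72009876, strand -, fragment P004 at chr8:72009551-72010001): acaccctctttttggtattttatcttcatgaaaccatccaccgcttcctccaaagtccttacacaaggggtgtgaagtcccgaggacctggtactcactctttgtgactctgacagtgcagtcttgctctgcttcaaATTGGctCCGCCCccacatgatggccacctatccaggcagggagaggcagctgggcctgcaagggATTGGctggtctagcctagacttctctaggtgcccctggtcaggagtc
Klf2 (chr8:72318812-72319061, strand +, fragment P016 at chr8:72318657-72319107): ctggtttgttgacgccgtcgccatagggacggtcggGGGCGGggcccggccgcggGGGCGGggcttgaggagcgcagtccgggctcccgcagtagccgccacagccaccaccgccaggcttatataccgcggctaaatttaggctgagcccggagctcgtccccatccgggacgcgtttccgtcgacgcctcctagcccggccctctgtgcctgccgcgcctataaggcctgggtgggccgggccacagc

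All 250 bases of each window lay inside the tested fragment, except for Smim7, where 246 did. On both strands, 7 sets of letters were searched: the GC box (GGGCGG, in 32.7% of 32851 RefSeq mouse promoter windows of this length), the CCAAT box (CCAAT, 33.8%), the TATA box (TATAAA, 12.4%), an ETS site (CCGGAAG, 6.91%), the NRF1 motif (3.74%), a YY1 site (ATGGCGG, 2.21%) and a CRE (TGACGTCA, 1.55%). The Smim7 window held 3 GC boxes and 2 CCAAT boxes, the Med26 window 2 NRF1 matches and 1 GC box, the Klf2 window 2 GC boxes, and the Calr3 window 1 CCAAT box. The Cyp4f18 window held 2 CCAAT boxes and 1 GC box, so the promoter with the lowest changes before active promoters shared these letters with those of the highest. Among these 5 it differed more in CpG dinucleotides: 3 in Cyp4f18 against 13 in Calr3, 17 in Smim7, 22 in Med26 and 29 in Klf2, where the RefSeq windows have a median of 6 (quartiles 2 and 16). Low counts were not particular to Cyp4f18. The windows of Olfr374 and Cib3 held 0 and 3, with mean changes before active promoters of -0.78 and -0.38, against -1.49 for Cyp4f18. High counts did not always come with high changes. Klf2 (29), Cherp (26) and Rab8a (18) had mean changes of 0.08, 0.25 and -0.03, against 1.22, 1.09 and 1.05 for Smim7, Calr3 and Med26. These letter matches are descriptions of the windows and were not tested against activity.

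The activity of each promoter on its own was the reference for most of what follows. The sample titles list separate Klf2 libraries for single fragments and for combinations, and a pair holds 1 fragment more than a promoter alone. In changes against a promoter alone, these differences cannot be told apart from an action of the added promoter. The construct without fragments had an activity of 0.122, 0.0700 and 0.240 in replicates 1, 2 and 3, and 19 of the 46 oriented promoters stood above 1 in every replicate, at least 4.80-fold over that construct. They are called active alone and the other 27 weak alone; the line at 1 was chosen after the values were seen and falls in a gap, between Rab8a- (1.21, 1.03 and 1.15) and Sin3b+ (0.455, 0.302 and 0.533). Of the 27 weak promoters, 18 were under 2-fold of the construct without fragments in all replicates, so the label promoter rests there on the gene start or the library's design and not on activity in these cells.

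The strongest was Smim7+, from the gene of a small integral membrane protein, at 19.8, 19.4 and 16.6, followed by Eps15l1+, from the gene of an endocytosis protein, at 15.0, 15.0 and 12.2. Zfp961+ (9.63, 9.38 and 7.63) and Med26+ (8.09, 8.53 and 7.20), the latter from the gene of a Mediator subunit, came next. Klf2+ was one of the 3 lowest active promoters at 1.37, 1.20 and 1.49, and Klf2- was weak at 0.236, 0.142 and 0.375. Active in both orientations were Med26, Ap1m1, Smim7, Cherp, Calr3, Eps15l1, Zfp961 and Rab8a. Active in 1 orientation only were Fam32a+, Klf2+ and Zfp882+, which made 11 fragments with an active orientation. Cyp4f18, from the gene of a cytochrome P450 enzyme of leukocytes, was weak both as + (0.182, 0.0931 and 0.296) and as - (0.114, 0.0632 and 0.220). Olfr374, an olfactory receptor gene, Hsh2d, an adaptor gene of blood cells, Cib3, Tmem38a, Nwd1, Sin3b, F2rl3 (the gene of a thrombin receptor), P002, P005, P008 and P012 were weak in both orientations. P012+ had discordant values of 1.12, 0.0133 and 0.244, so changes measured against it carry a large error.

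The first question was whether a promoter placed first raised the activity of the promoter placed second. Against the second promoter alone, 225 of 1317 pairs (17.1%) were called, where 9.23% of all 32080 constructs tested were (limma on log2 activity, 3 values against 3, Benjamini-Hochberg adjusted p under 0.05). Of these, 211 were higher (16.0% of the pairs, against 8.62% of all constructs) and 14 lower (1.06% against 0.608%). The median log2 change over the pairs was 0.18, against -0.06 over all constructs tested, and the mean was 0.60 ± 0.25 (SD, n = 3 replicates). The 1317 comparisons share 46 second promoters, each with 1 set of values alone, and are not independent of each other. With the replicate as a block, which compares values within the same culture, 366 pairs were called (27.8%, against 15.1% of all constructs), 302 higher (background 12.6%) and 64 lower (2.5%). With a trended, robust prior in limma 632 were called (background 20.9%), 427 higher (15.3%) and 205 lower (5.63%), so the lower share of the calls depended on how the variance was estimated. With the median cCRE-promoter construct as baseline, 405 were called (background 14.3%); a cCRE is a candidate cis-regulatory element, the other kind of fragment in the library. The count rested on the number of replicates: limma called 126 pairs without replicate 3 and 0 without replicate 1 or without replicate 2, where 182 and 287 pairs had an unadjusted p under 0.05. Among all 32080 constructs, 1694 were called without replicate 3 and 0 without replicate 1 or without replicate 2.

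The increases came almost wholly with a first promoter that was active alone. Of the 211 pairs higher than their second promoter, 207 had an active first promoter and 167 had a weak second promoter. Where a weak promoter came after an active one, 163 of 370 pairs were higher, where 8.62% of all constructs tested were. The mean log2 change was 2.30 ± 0.77 (SD, n = 3) over the 370 pairs. Its size differed between replicates, at 2.12, 3.14 and 1.64, in the reverse order of the activity of the construct without fragments in these replicates; the part of that background in the change was not tested. Where both promoters were active, the mean change was 0.60 ± 0.12 over 261 pairs, at 0.55, 0.73 and 0.52 in the 3 replicates, and 44 pairs were higher and 0 lower, with 182 of the 261 above the second promoter in every replicate.

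Weak promoters placed first were followed by other values. In front of active promoters their mean log2 change was -0.44 ± 0.03 (n = 3) over 343 pairs, at -0.48, -0.43 and -0.42, and 246 of these pairs lay below the second promoter in every replicate against 49 above. Of these pairs limma called 0 higher and 14 lower, where 8.62% of all constructs were higher and 0.608% lower. In front of weak promoters the mean change was -0.20 ± 0.20 over 343 pairs, at -0.43, -0.12 and -0.06, so all 3 replicates lay below 0 but the mean was about as large as their spread; 4 pairs were higher and 0 lower. Against the median cCRE-promoter construct with the same second promoter, in place of the second promoter alone, the mean change was -0.11 for weak before active, -0.02 for weak before weak and 0.93 for active before active.

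The 5 largest increases show what this meant for single constructs. Smim7+ before P002+ had activities of 14.3, 15.6 and 11.8, where P002+ alone had 0.145, 0.109 and 0.282, a log2 change of 6.39 ± 0.45 (SE; limma, adjusted p = 0.0102). Smim7+ before P008+ rose by 6.34, Eps15l1+ before P002+ by 6.31, Eps15l1+ before P008+ by 6.16 and Ap1m1+ before P002+ by 6.07. None of the 5 was called against the first promoter alone. Smim7+ alone had 19.8, 19.4 and 16.6, above all 3 values of its pair with P002+. Set against the higher of its 2 promoters, a comparison described below, Smim7+ before P008+ was called lower (-1.02, limma, adjusted p = 0.0356). The fifth differed in direction, since Ap1m1+ before P002+ had 11.6, 12.7 and 9.20 and Ap1m1+ alone only 6.53, 6.51 and 5.51, an excess of 0.85 (limma, adjusted p = 0.161).

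P002, the fragment inside Zfp882 next to its start, was the second fragment with the highest mean change after active promoters. As P002+ it changed by 4.59 ± 0.87 on average over 17 active first promoters and as P002- by 3.62 ± 0.53 over 18, and 17 of 17 and 17 of 18 of these pairs were higher than P002 alone. Over all constructs 8.62% were higher than their second fragment. At the other end, Olfr374- as a weak second promoter changed by 0.44 ± 0.09 over 16 active first promoters with 2 pairs higher. Weak second promoters thus differed widely in what followed from the same class of first promoter. Tmem38a+, from the gene of an intracellular cation channel of muscle, changed by 3.61 ± 0.68 and all 15 of its pairs were higher.

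The comparison with the first promoter separates a gain over the second promoter from output that the first brings along. Against the first promoter alone 714 pairs were called (54.2%), where 23.2% of 32273 constructs were, with 422 higher (32.0%, background 14.3%) and 292 lower (22.2%, background 8.92%). Pairs with an active promoter first and a weak one second were mostly below the first alone. The mean log2 change was -2.18 ± 0.21 (n = 3) over 370 pairs, 274 of which were lower and 1 higher. Of the 211 pairs higher than their second promoter, 92 were lower than their first, 108 were not called against it and 11 were higher than it too. Limma called 535 pairs against the first alone without replicate 2, 624 without replicate 3 and 0 without replicate 1, where 529 had an unadjusted p under 0.05. Among all 32273 constructs these counts were 5431, 6958 and 0.

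The largest losses against the first promoter ended near the level of the construct without fragments. Med26+ alone had 8.09, 8.53 and 7.20, and before Olfr374+ the pair had 0.148, 0.110 and 0.259, a log2 change of -5.61 ± 0.44 (SE; limma, adjusted p = 0.00192). Ap1m1+ before Olfr374+ changed by -5.55, Ap1m1+ before P005- by -5.52, Med26+ before P005- by -5.43 and Med26- before P012+ by -5.03. The largest gains over a first promoter were the mirror image, weak fragments before very active promoters. P005- before Smim7+ had 12.8, 11.9 and 13.1 where P005- alone had 0.0907, 0.0247 and 0.182, a change of 7.40. P005- and F2rl3- before Eps15l1+ changed by 7.29 and 7.10, and Tmem38a- and P005+ before Smim7+ by 6.89 and 6.82. Smim7+ and Eps15l1+ alone were the 2 strongest promoters of the set, so these pairs are high where their second promoter is.

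Against the sum of both activities alone, most pairs stood lower. The median log2 difference from the sum was -1.03, against -1.15 over all constructs tested, and 455 pairs were called (34.5%), where 13.5% of 32105 constructs were. Of these, 451 were lower (34.2%, background 12.7%) and 4 higher (0.304%, background 0.782%). Pairs of 2 active promoters were -0.61 ± 0.10 (n = 3) below the sum on average, with 58 lower and 1 higher. Weak before active gave -0.54 ± 0.05, and active before weak -2.28 ± 0.17 with 305 of 370 lower. The sum counts the background of the plasmid in both terms, which weighs most for 2 weak promoters, where the difference was -1.31 ± 0.18. With the replicate block 923 pairs were called (70.1%), a share near that of all constructs (70.7%), and with the trended, robust prior 838 (63.6%, background 27.1%). Limma called 241 pairs without replicate 3 and 0 without replicate 1 or without replicate 2, where 329 and 561 had an unadjusted p under 0.05. Among all 32105 constructs, 2351 were called without replicate 3 and 0 in the other cases.

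The 4 pairs above the sum were P002+ before Cyp4f18-, Zfp961- before P002+, Calr3- before Cherp- and Tmem38a+ before Cherp-. P002+ before Cyp4f18- had 1.29, 1.53 and 0.921, where P002+ alone had 0.145, 0.109 and 0.282 and Cyp4f18- alone 0.114, 0.0632 and 0.220, a difference of 2.11 ± 0.47 from the sum (SE; adjusted p = 0.0414). Zfp961- before P002+ had 5.33, 7.39 and 4.89, where Zfp961- alone had 2.15, 2.33 and 2.03. Calr3- before Cherp- had 15.5, 15.0 and 11.7, above every value of Calr3- (2.55, 2.22 and 2.21) and of Cherp- (4.71, 4.54 and 4.09), and 1.05 ± 0.23 above their sum (adjusted p = 0.0404). All replicate values of these 3 pairs lay above those of both promoters alone. Tmem38a+ before Cherp- stood 0.91 above the sum at an adjusted p of 0.0497.

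A pair can also be set against the higher of its 2 promoters in each replicate, a comparison added after the data were seen. Here 400 pairs were called (30.4%), where 13.3% of 32105 constructs were, with 378 below (28.7%, background 11.1%) and 22 above. The share above, 1.67%, was no larger than the 2.15% of all constructs. Calr3 was the first promoter of 10 of the 22, and Klf2+ the second promoter of 6; 15 of the 22 held one or the other. With the replicate block 36 pairs were above (2.73%, background 3.5%). Limma called 239 pairs without replicate 3, 71 without replicate 2 and 0 without replicate 1, where 322 had an unadjusted p under 0.05; 0 of the 71 and 2 of the 239 were above the higher promoter. Among all 32105 constructs these counts were 2491, 544 and 0, and 236 of the 2491 and 2 of the 544 were above.

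The position of the stronger promoter was compared directly in 495 couples of constructs that hold the same 2 promoters in the same orientations in both orders. With the stronger promoter second, the pair was 1.05 ± 0.13 (n = 3) log2 units more active than with it first, with a median of 0.91; 214 couples were called (43.2%), where 19.5% of 9195 couples in the mix were, with 204 higher (41.2%, background 18.7%) and 10 lower (2.02%, background 0.783%). Couples of an active and a weak promoter differed by 1.65 ± 0.20 over 278 couples, 178 higher and 2 lower. Couples of 2 active promoters differed by 0.41 ± 0.02 over 112, 26 higher and 5 lower. Couples of 2 weak promoters differed by 0.15 ± 0.08 over 105, 0 higher and 3 lower. Limma called 117 couples without replicate 3 and 0 without replicate 1 or without replicate 2, where 166 and 213 had an unadjusted p under 0.05. Among all 9195 couples, 1012 were called without replicate 3 and 0 in the other cases.

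Olfr374+ and Ap1m1+ made the couple with the largest difference. With Ap1m1+ second the activity was 4.08, 4.89 and 4.73, and with Ap1m1+ first it was 0.107, 0.0822 and 0.260, a log2 difference of 5.11 ± 0.48 (SE; limma, adjusted p = 0.00277). P005- and P005+ with Med26+ followed at 4.92 and 4.77. The 3 largest differences the other way were P002+ with Cyp4f18- at -3.65, P005+ with Tmem38a+ at -1.77 and Klf2+ with Calr3- at -1.64. In the last, Klf2+ before Calr3- had 1.90, 1.67 and 1.74, while Calr3- before Klf2+ had 5.29, 5.65 and 5.53, so these 2 active promoters gave the higher activity with the stronger one in front.

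The identity of the second promoter took a larger share of the variation than that of the first. In a sum of a first and a second promoter term on log2 activity, the second promoter alone took 68.4% of the variation between pairs, the first alone 17.7% and both together 90.3%, which left 9.68%. Log2 pair activity had a correlation of 0.80 with the second promoter's activity alone and of 0.39 with the first's (Pearson's r over 1317 pairs that share promoters and replicates). The log2 difference from the sum had a rank correlation near 0 with the distance between the promoters in the genome (Pearson's r -0.07). Pairs of close neighbours were few: the 8 pairs of Zfp882 and P002, 8 bp apart, changed by 0.06 to 3.24 against the second promoter with 2 higher, and the 8 pairs of Smim7 and Tmem38a, 364 bp apart, by -0.64 to 4.89 with 4 higher. Over all constructs 8.62% were higher.

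Promoters that were more active alone gave larger changes as first fragment. The mean change by oriented first promoter had a Pearson correlation of 0.95 with its own log2 activity (Spearman's rho 0.91, n = 42 oriented promoters), 0.96 over weak second promoters (n = 41) and 0.84 over active ones (n = 42). These promoters share replicates and second fragments, and 2 orientations of 1 fragment are not independent. The changes over active second promoters are taken further here, since they do not start from background.

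Smim7, Calr3, Med26 and Ap1m1 had the highest mean log2 changes over active second promoters, with both orientations joined: 1.22 ± 0.12, 1.09 ± 0.06, 1.05 ± 0.16 and 0.78 ± 0.21 (SD, n = 3 replicates). In the 3 replicates the means were 1.19, 1.36 and 1.12 for Smim7, 1.09, 1.15 and 1.03 for Calr3 and 0.98, 1.23 and 0.94 for Med26. Calr3 and Med26 were above the second promoter alone on average with all of their 32 and 29 partners, of which 11 and 10 were called, and Smim7 with 27 of 31, of which 10 were called. Over all constructs 8.62% were called higher. Eps15l1 followed at 0.51 ± 0.12, Zfp961 at 0.32 ± 0.14 and Cherp at 0.25 ± 0.12.

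Calr3 stood out from promoters of like activity. Calr3- alone (2.55, 2.22 and 2.21) was close to Eps15l1- (2.20, 2.21 and 2.13), Zfp961- (2.15, 2.33 and 2.03), Rab8a+ (2.24, 2.03 and 2.02) and Cherp+ (2.16, 2.09 and 2.00). Before the same active second promoters, Calr3- gave a change 1.01 ± 0.09 larger than Eps15l1- (13 shared partners), 0.92 ± 0.11 larger than Zfp961- (12), 1.10 ± 0.07 larger than Rab8a+ (12) and 1.06 ± 0.07 larger than Cherp+ (13). The difference had the same sign with every shared partner and in each replicate, and the exact two-sided sign-flip test over 3 replicates gave 0.25, the smallest value it allows, in each of the 4 comparisons. Calr3 encodes a chaperone of the calreticulin family known from testis, and its fragment also holds the start of 1700030K09Rik on the other strand. Calr3 was picked for this comparison after its values were seen.

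Before active promoters Cyp4f18 had the lowest mean change, -1.49 ± 0.13, at -1.53, -1.59 and -1.35, and was below the second promoter alone with all 29 active partners. It was the first promoter of 13 of the 14 pairs called lower than their second promoter; P012- before Rab8a- was the other. This held for the unblocked test with a common prior: Cyp4f18 was first in 28 of the 64 lower pairs with the replicate block and in 30 of 205 with the trended, robust prior, where the lower pairs had 10 and 18 different first fragments. Cyp4f18- before Eps15l1- had 0.378, 0.461 and 0.494 against 2.20, 2.21 and 2.13 for Eps15l1- alone, a log2 change of -2.30 ± 0.29 (SE; limma, adjusted p = 0.0119), and Cyp4f18+ before Eps15l1- changed by -2.26. Cyp4f18- before Cherp- changed by -2.08, Cyp4f18+ before Rab8a+ by -2.05 and Cyp4f18- before Ap1m1- by -1.96. Both orientations had like means, -1.54 ± 0.18 as - with 9 of 17 pairs lower and -1.43 ± 0.10 as + with 4 of 12, where 0.608% of all constructs were lower. All 3 values of these 5 pairs lay below all 3 of the second promoter alone.

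The other promoters lay between. Olfr374 (-0.78 ± 0.06), P012 (-0.76 ± 0.03), Hsh2d (-0.61 ± 0.05) and P008 (-0.60 ± 0.07) had means below 0 in every replicate, as had F2rl3 (-0.43, 3 pairs), P005 (-0.42), Cib3 (-0.38) and Nwd1 (-0.32). A mean below 0 was usual in this position: 82 cCREs placed first had a median of -0.39. Olfr374 and P012 lay below 70 of these cCREs, Hsh2d below 62 and P008 below 61. F2rl3 and P005 lay below 44 of them, Cib3 below 41 and Nwd1 below 36. P002 (-0.06), Rab8a (-0.03), Fam32a (-0.01, 5 pairs), Tmem38a (0.03) and Zfp882 (0.03) had means of differing sign between replicates, and the median over partners of Tmem38a was -0.04. Sin3b, from the gene of a corepressor scaffold, was at 0.07 and Klf2 at 0.08. As a list drawn up from general knowledge, the 9 promoters of genes called broadly expressed (Smim7, Med26, Ap1m1, Eps15l1, Zfp961, Zfp882, Tmem38a, Fam32a and Rab8a) averaged 0.44 ± 0.13, 7 of them above 0, with 28 of 246 pairs higher (11.4%, where 8.62% of all constructs were) and 0 lower. The list was not trimmed for Tmem38a, best known from muscle. The 4 called tissue-restricted (Cyp4f18, Olfr374, Hsh2d and Cib3) averaged -0.81 ± 0.05, none above 0, with 0 of 128 pairs higher and 13 lower (10.2%, where 0.608% of all constructs were), all of these with Cyp4f18. These values depend on who was listed: the 9 fragments in neither list nor named Klf2 include Calr3, known from testis, at 1.09, as well as Cherp, Sin3b, Nwd1 and F2rl3. The 2 lists also differ in activity alone. The 4 tissue-restricted promoters were weak alone in both orientations, and weak promoters before active ones averaged -0.44 in general. Of the 9 broad promoters only Tmem38a, as fragment P023, was weak in both, so breadth of expression and activity alone cannot be told apart here.

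The Klf2 library also holds cCREs as first fragments before the same second promoters, which gives a comparison of promoters with cCREs in the same position. Over the 19 active second promoters, first promoters gave a mean log2 change of 0.01 ± 0.06 and first cCREs of -0.31 ± 0.04, a difference of 0.32 ± 0.04 (n = 3) that was positive for 19 of 19 second promoters. Promoters active alone were 0.91 ± 0.10 above the cCREs, again with 19 of 19, while weak promoters were -0.14 ± 0.01 from them, higher with 2 of 19. Each of these 3 differences had 1 sign in all 3 replicates, and the exact two-sided sign-flip test gave 0.25 for each, the smallest value 3 replicates allow. By mean change, Smim7, Calr3 and Med26 each lay above 81 of 82 cCREs and Cyp4f18 below 79 of 82; the cCREs ranged from -2.13 to 1.37 with a median of -0.39.

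Klf2 itself was described in both positions. As first fragment Klf2+ gave a mean log2 change of 0.04 ± 0.03 over 8 active second promoters (median over partners -0.08, 3 of 8 above 0) and 0.69 ± 0.18 over 9 weak ones, with 1 pair higher, and Klf2- gave 0.11 ± 0.03 and 0.11 ± 0.19 over 16 of each, with 0 higher. These are changes against the second promoter alone. Against Klf2 alone, the pairs with active second promoters changed by 1.55 ± 0.23 for Klf2+ and 4.07 ± 0.79 for Klf2-. As second fragment, Klf2 is set against itself alone. Klf2+ after 11 active promoters changed by 1.85 ± 0.26, at 1.81, 2.13 and 1.60, with 10 of the 11 pairs higher, where 8.62% of all constructs were. Klf2- after 10 active promoters changed by 2.39 ± 0.62 with 4 higher, where the mean for all weak second promoters after active ones was 2.30. After 11 weak promoters Klf2+ changed by -0.28 ± 0.16, with 1 pair lower, that with Cyp4f18- in front at 0.403, 0.440 and 0.598. The active promoters of most like activity, Zfp882+ and Rab8a-, changed less as second fragment: over shared first promoters Klf2+ was 0.93 ± 0.13 above Zfp882+ (10 shared, 7 of them higher) and 0.51 ± 0.05 above Rab8a- (8 shared, 6 higher), both with an exact two-sided sign-flip value of 0.25, the smallest possible. Among the pairs above both promoters, Calr3- before Klf2+ reached 5.29, 5.65 and 5.53, Cherp+ before Klf2+ 4.34, 5.67 and 5.04, and Rab8a- before Klf2+ 3.59, 3.62 and 3.19.

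Turning the first promoter around gave calls for a minority of pairs, though a larger share than over all couples. A couple that was not called is not thereby shown to be unchanged. Of 523 couples that differ only in the orientation of the first promoter, 53 were called (10.1%), where 4.98% of 10040 couples were, with 41 higher as + (7.84%, background 3.62%) and 12 higher as - (2.29%, background 1.36%). With the trended, robust prior 160 were called (30.6%, background 16.8%). Smim7 accounted for 27 of the 41, with + higher by 2.01 ± 0.14 over 33 couples, and Eps15l1 for 10, with 1.03 ± 0.13 over 42. Cherp accounted for 11 of the 12, with + lower at -1.13 ± 0.23 over 35. Alone, the same orientations differed by 2.01 for Smim7, 2.68 for Eps15l1 and -1.09 for Cherp, so for these 3 the more active orientation alone was also the one with the higher pairs. The sign of the mean in pairs and alone was the same for 17 of 19 fragments. Among the 17, the difference in pairs had no single sign over the replicates for Med26, P002, P008 and Cyp4f18. The other 2 fragments were Ap1m1 (-0.46 in pairs, 0.06 alone, 1 couple called) and Cib3 (0.30 ± 0.31 in pairs, -0.58 alone). Zfp961 and Klf2 showed smaller differences in pairs (0.41 and 0.23) than alone (2.03 and 2.53). No single replicate could be spared here: limma called 0 couples without any one of the 3, with 53, 72 and 115 at an unadjusted p under 0.05 without replicates 1, 2 and 3. The count over all 10040 couples was also 0 each time.

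The couples named by size were led by the same 2 genes. Smim7+ before Cib3- had 5.97, 6.07 and 4.96 and Smim7- before Cib3- had 0.353, 0.362 and 0.576, a log2 difference of 3.75 ± 0.29 (SE; limma, adjusted p = 0.00645); before Sin3b- and P008+ the differences were 3.54 and 3.48. Cherp+ before P008+ had 0.297, 0.225 and 0.330 and Cherp- before P008+ had 3.62, 2.41 and 2.51, a difference of -3.32, and before Nwd1+ and P008- the differences were -2.75 and -2.31. In the first couple of each gene the 2 orientations did not overlap.

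The Downstream assay of the same series, with its own 3 transfections, combined the 23 fragments as inserts in another position with 10 promoters of the locus in the vector (5 of them for F2rl3). Its 420 promoter inserts, 19 of which were the vector's own promoter, are given here as log2 activity over the mean of control inserts with the same vector promoter, and 20 single control inserts ranged from -0.44 to 0.64. Calr3 (1.14 ± 0.09, n = 3), Med26 (1.05 ± 0.06), Klf2 (0.93 ± 0.05) and Tmem38a (0.81 ± 0.06) lay above that range. Zfp961 (0.65 ± 0.11) stood at its upper end, at 0.78, 0.57 and 0.61 in the 3 replicates. Cyp4f18 (-0.67 ± 0.06) and P008 (-0.66 ± 0.06) lay below it, Cyp4f18 with 0 of 10 vector promoters above their controls. Smim7, the highest in the Upstream pairs, was within the range at 0.48 ± 0.07. Over the 23 fragments the 2 assays' means had a Pearson correlation of 0.68 (Spearman's rho 0.59), and 0.52 without Cyp4f18 and Calr3 (n = 21); fragments share vector promoters and replicates within each assay.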

How the data were processed

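Per the labels' protocols, barcodes were counted in cDNA of 3 transfected cultures and in 2 replicates of the plasmid pool. The deposited values are the authors' activities, a linear ratio of cDNA to pDNA per construct and replicate; their scaling, barcode filters and depth are not given in the sources used here, so no counting interval can be set. The submitters' processing notes name Bowtie2 and mm10. Of 39 value columns, 27 were not used. Activities were log2 transformed without pseudocount, and constructs with a 0 were left out. Tests used limma 3.58.1 in R 4.3.3 with 3 against 3 values, fitted over all constructs with 2 fragments of the transfected mix. They were also run on simulated data with independent noise for pair and reference, which does not cover deviations shared within a culture. Means over pairs were taken per replicate and are given with the SD over 3 replicates. Same-numbered values come from the same culture; correlations of their deviations were -0.03, 0.41 and 0.59, against -0.51 to 0.09 between numbers. Replicates are independent transfections of 1 cell line. The named pairs are the 5 largest changes each way among those called (3 for order and orientation), and Klf2 always. Members, lists and alternatives were chosen with earlier results of these data known; the activity line at 1 and the comparisons with the higher promoter and with promoters of like activity were chosen after the values were seen. Gene starts and sequences are from RefSeq (GRCm38.p6), which matches mm10; symbols matched for the 18 fragments with a gene start.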

Additional observations from a re-analysis of the deposited data

How the results depend on the processing

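No comparison, class mean or pair given above changed sign under the alternatives tested, but counts of calls rested on settings. Values near 0 were less stable. The difference between weak promoters and cCREs before weak promoters, not given above, was -0.008, at -0.05, 0.09 and -0.07 in the 3 replicates. Means near 0 for single promoters changed sign: with medians over partners, before active promoters, Tmem38a was at -0.04 and Klf2+ at -0.08. With the replicate block, 366 pairs were called against the second promoter (82.5% higher) and 923 against the sum; it moved no other count of the planned comparisons by over 1.5 times. With a trended, robust prior the counts were 632 (67.6% higher, against 211 of 225), 838 and, for orientation, 160. With the median cCRE construct as baseline 405 pairs were called, and the mean change was 0.93 for active before active and -0.11 for weak before active. Medians in place of means gave 0.23 for the change over all pairs, -0.41 for weak before active, 0.80 for active promoters against cCREs and -0.086 for weak ones, which was -0.15 without fragments within 450 bp of each other. With background subtracted, weak before active was -0.49, an alternative chosen after seeing the data.

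Leaving out 1 replicate lowered the counts over all constructs too, as given above with each comparison. Among the pairs it gave 0 to 126 calls against the second promoter, 0 to 624 against the first, 0 to 241 against the sum, 0 to 239 against the higher promoter, 0 to 117 for order and 0 for orientation. The mean change then ranged from 0.45 to 0.68 over all pairs, 0.53 to 0.64 for active before active, 1.88 to 2.63 for active before weak, -0.45 to -0.43 for weak before active and -0.28 to -0.09 for weak before weak. Against cCREs it ranged from 0.74 to 1.02 over all, 0.30 to 0.34 over active second promoters, 0.85 to 0.96 for active and -0.14 to -0.13 for weak first promoters. With 3 replicates and unknown barcode depth, changes from activities near the construct without fragments are the least precise.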
